A study of Mus musculus with 16 samples.

Results

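Microglia, the resident macrophages of the brain, carry in the undisturbed tissue a set of transcripts that is commonly used to recognise them and that is known to decline when the cells respond to injury or to protein deposits. Of this homeostatic set, 9 genes are described here out of the 30389 genes counted in the series: P2ry12, P2ry13, Tmem119, Cx3cr1, Siglech, Gpr34, Selplg, Sall1 and Olfml3. They were taken by symbol as known genes of the cell type, with earlier results of these data known. Each was followed as UMIs (unique molecular identifiers, 1 per captured transcript) summed per mouse and cell class, and scaled to 1000000 UMIs of that class (CPM).

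The data are Drop-seq libraries of freshly dissociated neocortex from 17-month-old mice, 1 library per mouse. THY-Tau22 mice are heterozygous for a human mutant tau transgene that the neuronal Thy1.2 promoter drives, and the controls (WT) were littermates without it. Both genotypes came from crosses of heterozygous males to C57Bl6/J females, and no other allele or treatment was named. The labels give 4 mice for each male group, 3 for WT and 5 for THY-Tau22 females, and the question asked of them was which cell classes differ with the transgene and whether that depends on sex.

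The table of WT male replicate 3 had 2952 of its 3000 cell barcodes in common with that of THY-Tau22 male replicate 4, where the other of the 120 pairs shared 3 to 12. The same library therefore stands under both genotypes, and both tables were left out of the genotype comparisons, which leaves 3 males of either genotype, 3 WT and 5 THY-Tau22 females. The second part of the sample titles reads MB21 for 14 libraries and MB22 for THY-Tau22 female replicate 5 and WT female replicate 3 alone, and what it stands for is not given. An animal number recurs in the titles of WT male replicate 1 and of THY-Tau22 female replicate 1, for which no reason was given. The 16 libraries held 1041675 to 2237505 UMIs each, and 28530 of 48000 barcodes had 200 to 7000 detected genes, 24578 of them in the 14 libraries compared. A kept barcode had a median of 429 to 736.5 UMIs, depending on the library.

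Cells were placed in classes by 12 lists of marker genes that contain none of the 9 genes. The microglia-like class (C1qa, C1qb, Csf1r, Ctss, Trem2 and others) held 7053 barcodes in the 14 libraries, 283 to 751 per mouse and 20.3 to 36.1% of the kept barcodes. Its 10 genes with the highest fold over the other barcodes included, beside markers such as Ctss and C1qc, genes that had not been used to choose the cells: Gpr34, Siglech, Selplg, P2ry12, Bcl2a1b, Il1a and Gpr84. Macrophage markers such as Mrc1 and Pf4 summed to 38.1 CPM in the class, against 15390 CPM in macrophage-like cells.

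Several of the 9 proteins sit at the cell surface and read signals from neurons and damaged cells. P2ry12 and P2ry13 are receptors for extracellular ADP, and P2ry12 steers microglial processes towards nucleotide release. Cx3cr1 is the receptor of fractalkine (Cx3cl1), which neurons make, and Gpr34 is a receptor for lysophosphatidylserine. Siglech is a sialic acid binding lectin that signals through the adaptor Tyrobp, and Selplg encodes the ligand of P-selectin. Tmem119 is a membrane protein of little known function, Olfml3 is a secreted olfactomedin domain protein, and Sall1 is a zinc finger transcription factor that maintains microglial identity. PU.1, the myeloid master regulator, binds purine-rich sites with a GGAA core and is known to act at many microglial genes.

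In the GENCODE annotation of GRCm38, the build of the count tables (mm10), P2ry12 (chr3:59216272-59262871, minus strand) and P2ry13 (chr3:59207892-59210882, minus strand) are neighbours that both lie within Med12l, a gene on the other strand. Cx3cr1 (chr9:119901616-120069879, minus strand) overlaps several genes, among them Csrnp1 on the same strand and Wdr48 on the other. Gpr34 (chrX:13632089-13640858, plus strand) lies within Cask on the other strand. Whether the counting used strand was not stated, so reads of these pairs could be shared. For Cx3cr1 and Csrnp1 the use of strand would not separate them. In the kept barcodes of the 14 libraries, Med12l had 488 UMIs, Csrnp1 782, Wdr48 676 and Cask 1308, the last against 3763 of Gpr34. No annotated gene overlapped Tmem119 (chr5:113793729-113800516), Siglech (chr7:55768178-55778925), Selplg (chr5:113818536-113832644), Sall1 (chr8:89027235-89044162) or Olfml3 (chr3:103722222-103738001).

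RefSeq promoter windows on GRCm38.p6 were found for 6 of the 9 genes. Shown here are the neighbours P2ry12 and P2ry13, Cx3cr1 as the gene with the most UMIs, and Siglech as the other window that holds the letters searched. Each line gives the 98 bases before and 2 bases from the annotated start, 5′ to 3′ on the gene's strand, with GAGGAA, a form of the PU.1 core, or its reverse TTCCTC in capitals.
P2ry12 (chr3:59262984-59263083, minus strand): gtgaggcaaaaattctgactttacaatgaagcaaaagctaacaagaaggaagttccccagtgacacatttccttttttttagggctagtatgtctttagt
P2ry13 (chr3:59210881-59210980, minus strand): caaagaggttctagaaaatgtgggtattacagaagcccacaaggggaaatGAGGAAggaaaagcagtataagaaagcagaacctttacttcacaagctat
Cx3cr1 (chr9:120068295-120068394, minus strand): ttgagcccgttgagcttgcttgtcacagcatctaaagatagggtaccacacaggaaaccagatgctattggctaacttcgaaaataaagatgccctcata
Siglech (chr7:55768086-55768185, plus strand): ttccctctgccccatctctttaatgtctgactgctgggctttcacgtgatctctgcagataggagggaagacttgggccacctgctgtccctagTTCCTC

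The letters GAGGAA stood in P2ry13 on the strand shown and in Siglech on the other strand, and in none of the windows of P2ry12, Cx3cr1, Sall1 and Olfml3. On either strand, 9.79% of all 32851 windows of this length hold them. The longer GAGGAAGT and the TATA box letters TATAAA, present in 1.15% and 5.52% of all windows, were in no window of the 6 genes. The shorter GGAA stands in each window shown, P2ry12 and Cx3cr1 included, so the search for GAGGAA does not show that a window lacks the core. The share of all windows with GGAA was not counted. A match is a description of letters and not of a bound site.

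All 9 genes were highest in microglia-like cells of the 7 classes with enough cells to compare. Of the 61085 UMIs of the 9 genes in the kept barcodes of the 14 libraries, 89.1% fell in microglia-like cells and 5.17% in barcodes left out because they carried markers of several classes. In every one of the 8 mice with at least 10 macrophage-like cells, each gene was higher in the microglia-like than in the macrophage-like cells (two-sided exact permutation test over the signs, p = 0.00781 for each gene, the smallest that 8 mice allow, and adjusted p = 0.0324 over the 54 neighbouring pairs of classes compared). Relative to astrocytes, oligodendrocytes, oligodendrocyte precursors (OPCs), endothelial cells and neurons, the microglial mean was 31.1 to 71.8 times higher for Cx3cr1 and 34.8 to 137 times higher for P2ry12, but only 8.85 to 39.8 times higher for Sall1.

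**Figure D1:**
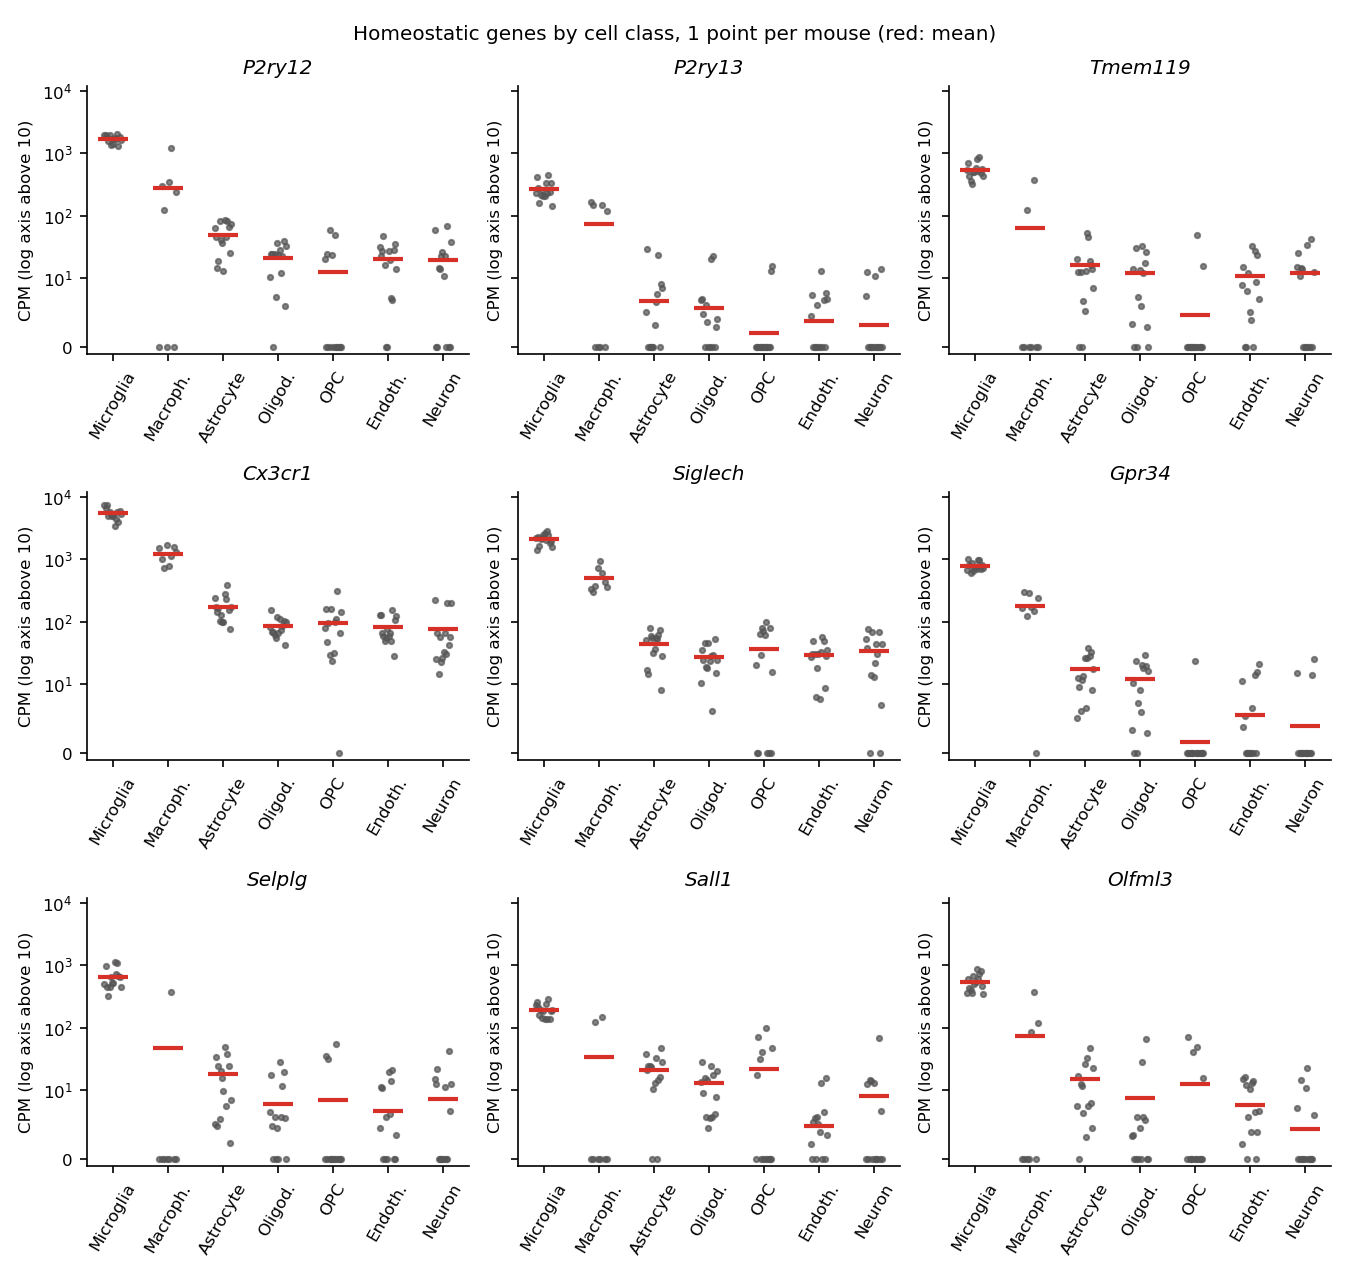
Mean CPM of each gene in 7 cell classes (red lines; the axis is linear below 10 CPM and logarithmic above), with points for single mice (14 mice, or 8 for macrophage-like cells). Microglia-like cells are the highest class for all 9 genes, with mean levels from 193.1 CPM for Sall1 to 5430 CPM for Cx3cr1.

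P2ry12 had 1714 ± 231 CPM in microglia-like cells (mean ± SD, n = 14 mice) and 275.3 ± 399 CPM in macrophage-like cells (n = 8). The macrophage-like values of P2ry12 ranged from 0 in 3 mice to 1202 CPM in THY-Tau22 male replicate 3, which held 16 of the 25 UMIs, so the macrophage level rests largely on that mouse. It then fell to 49.2 ± 25.8 CPM in astrocytes and 20.9 ± 11.9 CPM in oligodendrocytes, and astrocytes exceeded oligodendrocytes in 12 of 14 mice (exact permutation p = 0.00134, adjusted p = 0.0324).

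Cx3cr1, the fractalkine receptor, had 5430 ± 1190 CPM in microglia-like cells. In macrophage-like cells it stood at 1222 ± 367 CPM, with 735.7 CPM in the lowest and 1723 CPM in the highest of 8 mice. That was above astrocytes, at 174.4 ± 83.5 CPM, in 8 of 8 mice (exact permutation p = 0.00781, adjusted p = 0.0324), and astrocytes were above OPCs in 13 of 14 mice (exact permutation p = 0.000732, adjusted p = 0.0324). Siglech, at 2116 ± 407 CPM in microglia-like and 506 ± 229 CPM in macrophage-like cells, likewise exceeded its astrocyte level of 44.5 ± 22.0 CPM in 8 of 8 mice with an adjusted p of 0.0324 in the exact permutation test.

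Apart from the 9 steps from microglia-like to macrophage-like cells and these 4, no neighbouring pair of classes differed beyond its spread after adjustment. Gpr34 was at 784.4 ± 130 CPM in microglia-like and 179 ± 96.3 CPM in macrophage-like cells, and P2ry13 at 264.1 ± 89.2 and 73.0 ± 79.0 CPM. Selplg, at 650.5 ± 251 CPM in microglia-like cells, was detected in the macrophage-like cells of only 1 of the 8 mice, THY-Tau22 male replicate 3, with 5 UMIs. Tmem119 (545.7 ± 156 CPM), Olfml3 (548 ± 169 CPM) and Sall1 (193.1 ± 48.3 CPM) were each at 0 in the macrophage-like cells of 5 or 6 of the 8 mice. Libraries prime at the poly-A end and transcripts differ in how well they are captured, so these levels order the classes for 1 gene and not the genes among themselves.

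The edgeR quasi-likelihood test with a mouse block gave the same direction, with log2 fold changes of macrophage-like over microglia-like cells between −2.66 (P2ry13) and −4.21 (Selplg). Without THY-Tau22 male replicate 3, which held all 5 Selplg UMIs in the macrophage-like cells of these 8 mice, the values were −9.58 for Selplg and −5.61 for Tmem119, so the fitted size of these differences is no bound. It called all 9 genes lower, where 21.4% of the 3851 genes tested were called lower. The median of all genes in that fit was −0.70, and the division of the calls depended on the scaling: edgeR with TMM factors called 823 genes lower and 123 higher, and library totals without TMM factors 160 lower (4.15%) and 203 higher, with a median of 0.10. All 9 genes were called lower under both scalings, and 7 of 9 with DESeq2 (116 genes lower, 3.01% of those tested, and 232 higher), which lost P2ry13 (adjusted p = 0.0597) and Sall1 (adjusted p = 0.0546).

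The few UMIs outside microglia-like cells were compared with the proportions inside them. The UMIs expected of a gene in a class follow from the UMIs of the other 8 genes there and from the proportions of the 9 in microglia-like cells of the same library. Across astrocytes, oligodendrocytes, OPCs, endothelial cells and neurons some counts lay close to it: P2ry12 in astrocytes had 167 UMIs where 174 were expected, and Cx3cr1 in neurons 99 where 97.3 were expected.

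Sall1 did not keep the ratio. Astrocytes held 85 Sall1 UMIs where 19.3 were expected, a ratio of 4.39 (exact Poisson 95% interval 3.51 to 5.43, counting error only), and the count was above expectation in 12 of 14 mice. Oligodendrocytes held 42 where 8.99 were expected, a ratio of 4.67 (3.37 to 6.31), above in 14 of 14 mice, and OPCs held 11 where 1.41 were expected, above in 6 of 14 mice. In endothelial cells and neurons the interval of the Sall1 ratio included 1. The few ependymal-like barcodes (43) held 6 Sall1 UMIs where 0.0790 were expected. In macrophage-like cells Sall1 had 5 UMIs where 4.79 were expected, a ratio of 1.04 (0.339 to 2.43). That interval is too wide to show that the ratio was kept there.

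**Figure D2:**
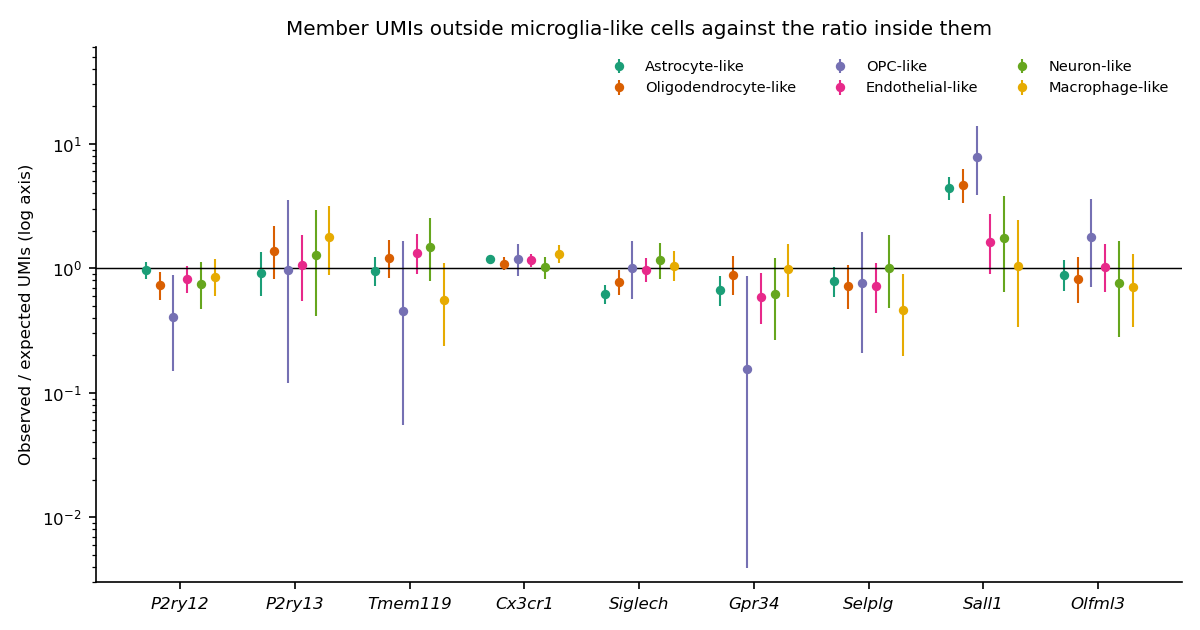
Ratio of observed UMIs to those expected from the proportions in microglia-like cells, for each gene in 6 other classes, on a log axis; bars give exact 95% Poisson intervals and the line marks a ratio of 1. Sall1 stands at 4.39 in astrocytes, 4.67 in oligodendrocytes and 7.78 in OPCs, and Gpr34, with 1 UMI, at 0.156 in OPCs.

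Other genes departed from the ratio as well, by intervals that cover counting error only. Each expectation is built from the other 8 genes, so the departures within a class are not independent of each other. Siglech in astrocytes had 135 UMIs where 219 were expected (ratio 0.617, interval 0.518 to 0.731), and Gpr34 52 where 78.1 were expected (0.666, 0.497 to 0.873). In OPCs Gpr34 had 1 UMI where 6.43 were expected (0.156, 0.00394 to 0.867) and P2ry12 6 where 14.8 were expected (0.406, 0.149 to 0.884). Oligodendrocytes held 62 P2ry12 UMIs where 84.7 were expected (0.732, 0.561 to 0.939) and had a Siglech ratio of 0.775 (0.613 to 0.968), and endothelial cells had a Gpr34 ratio of 0.59 (0.36 to 0.91). Cx3cr1 was above its ratio in astrocytes (1.19, 1.09 to 1.29), in endothelial cells (1.16, 1.02 to 1.3) and in macrophage-like cells, with 143 UMIs where 109 were expected (1.31, 1.10 to 1.54), and Selplg below it, with 8 where 17.3 were expected (0.461, 0.199 to 0.909). By mouse, Cx3cr1 was above expectation in 8 of 14 in astrocytes, 9 of 14 in endothelial cells and 11 of 14 in macrophage-like cells. The genes with departures downwards were below expectation in 9 of 14 mice (P2ry12 in oligodendrocytes) to 13 of 14 (Gpr34 in OPCs). Where few UMIs are expected per mouse, a mouse without a UMI of the gene falls below by itself. In OPCs P2ry13, at a ratio of 0.979, was also below in 12 of 14 mice. The mouse counts for OPCs therefore do not show a departure. Selplg also had 2 UMIs in the 15 T or NK-like barcodes and Olfml3 3 UMIs in the 13 fibroblast-like barcodes, counts too small for a level.

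At the level of single cells, the shares with at least 1 UMI were compared after each cell was thinned to 300 UMIs, which kept 6712 of 7053 microglia-like cells (1300 of 1370 in THY-Tau22 males, 1603 of 1663 in WT males, 2558 of 2694 in THY-Tau22 females and 1251 of 1326 in WT females). The median share over the 14 mice was 76.0% for Cx3cr1 (88.3% unthinned), 44.8% for Siglech (65.5% unthinned) and 39.2% for P2ry12 (55.5% unthinned). It was 20.0% for Gpr34, 15.6% for Selplg, 14.7% for Tmem119, 13.6% for Olfml3, 6.89% for P2ry13 and 5.57% for Sall1. In oligodendrocyte-like cells, which should lack these genes, although for Sall1 they are not shown to be such a class, and which had a median of 585 UMIs against 500.2 in microglia-like cells, the thinned shares were 2.16% for Cx3cr1 and under 1% for each of the other 8 genes.

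Most microglia-like cells carried more than 1 of the 9 transcripts even at this depth. Over the mice 65.1 to 85.4% of the thinned cells had UMIs of 2 or more genes, against 0 to 1.09% of oligodendrocyte-like cells. No UMI of any of the 9 genes was found in 2.18 to 10.6% of thinned microglia-like cells. In males this share was 4.23 ± 3.00% for WT against 5.56 ± 1.76% for THY-Tau22 mice (exact permutation test, p = 0.6), and in females 4.96 ± 2.01% against 6.01 ± 2.88% (p = 0.714 in the same exact test).

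Over the 7 classes, the genes whose profile lay closest to the summed 9 genes included Itgam (Pearson r = 0.997 across 7 classes of log2(CPM + 1)), BC035044, Btk, Tnfaip8l2, Wdfy4, Ccdc191, Lat2, Batf3 and Ctss, out of 5909 genes screened. Ctss is a marker that chose the class. The nearest single gene was Liph for P2ry12, Lag3 for Tmem119, Btk for Cx3cr1, Vav1 for Gpr34 and Il1a for Selplg. Sall1 was the least like the others, with r = 0.9421 to its nearest member Olfml3 and 0.8423 to Gpr34. The points share libraries and depth, and these values are descriptive.

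The partners of the 9 proteins lay in other classes as well as in microglia. Cx3cl1, the ligand of Cx3cr1, was highest in neurons at 273.3 CPM and stood at 3.44 CPM in microglia-like cells. Entpd1, the ectoenzyme that breaks ATP and ADP down and so supplies or clears the ligands of P2ry12, was highest in microglia-like cells at 530.8 CPM. Tyrobp, the adaptor of Siglech and also a marker that chose the class, had 1100 CPM in microglia-like and 1192 CPM in macrophage-like cells. Among selectins that bind Selplg, Selp had 2 UMIs in the 14 libraries and Sele 28 UMIs, with 9.17 CPM in endothelial cells. Among the paralogs Sall3 was highest in microglia-like cells at 147.6 CPM, whereas Sall2 was highest in astrocytes at 30.5 CPM and the Olfml3 relative Olfml1 in oligodendrocytes at 118.7 CPM.

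The spread between mice within microglia-like cells differed between the genes. The coefficient of variation over 14 mice was lowest for P2ry12 (13.4%, 1301 to 2003 CPM) and highest for Selplg (38.6%, 321.8 to 1118 CPM). P2ry13 (143.7 to 455.3 CPM), Tmem119 (318.8 to 857.4 CPM), Sall1 (136.8 to 284.5 CPM) and P2ry12 were all highest in WT female replicate 2, and Selplg and Olfml3 in THY-Tau22 male replicate 3. These were the libraries with the deepest microglia-like cells, at medians of 722.5 and 1023 UMIs, and the part of depth in these levels was not tested. Siglech (1431 to 2845 CPM) and Gpr34 (601.6 to 999.3 CPM) were highest in other mice.

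**Figure D3:**
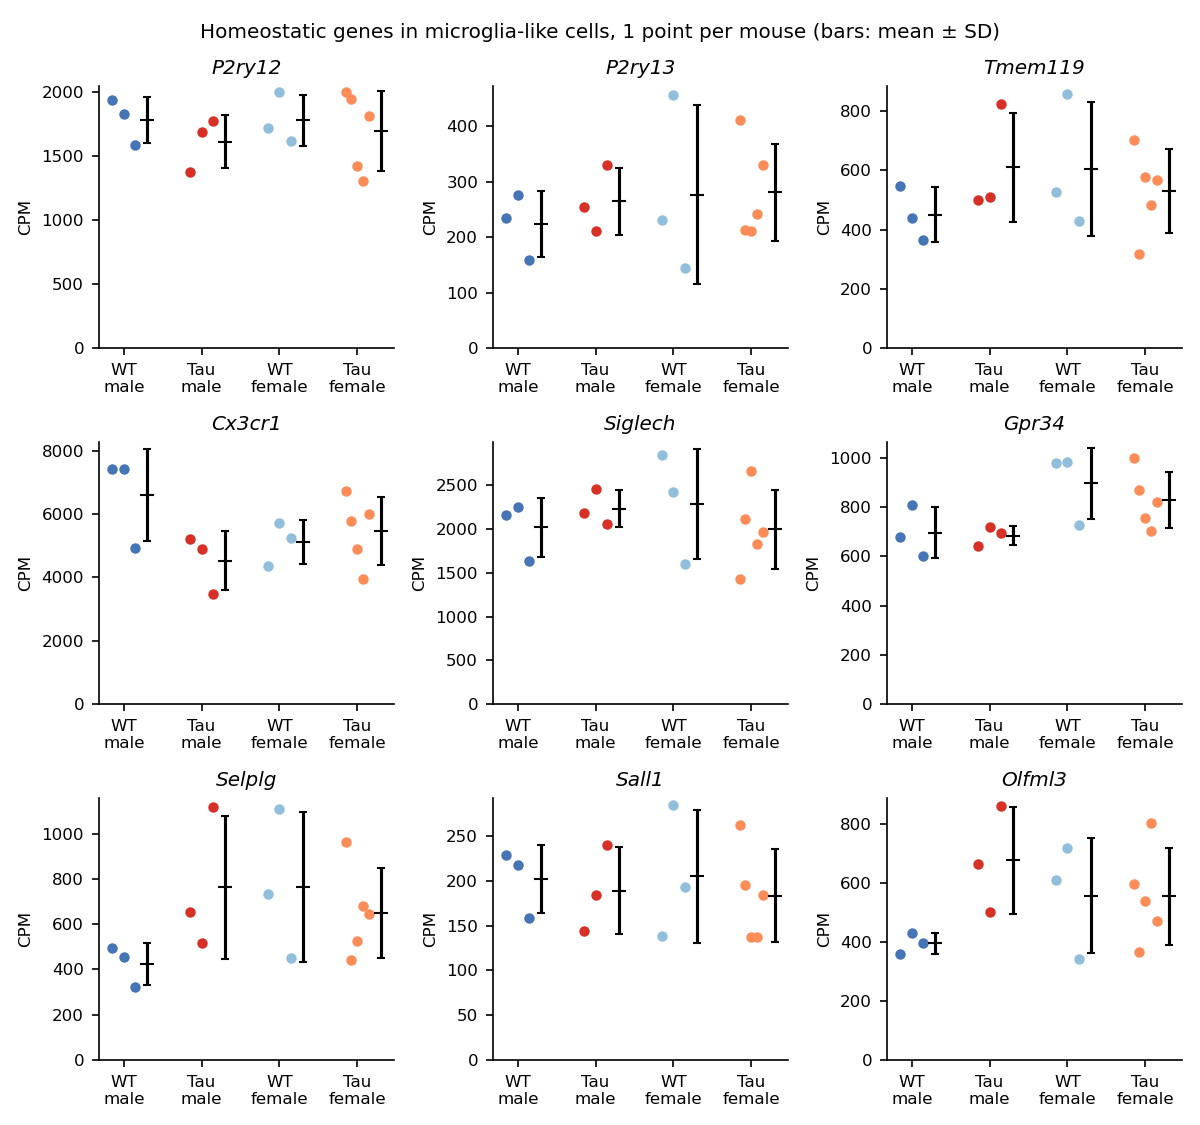
CPM of each gene in microglia-like cells of every mouse by group (Tau stands for THY-Tau22), with the group mean and SD (n = 3, 3, 3 and 5). THY-Tau22 and WT males do not overlap for Selplg and Olfml3, and every other comparison of genotypes within a sex overlaps. The share of all genes that separate in this way was not counted, so nothing particular to Selplg and Olfml3 is read from it.

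The first comparison of the design asks whether the genes differ with the tau transgene in males. Summed over the 9 genes, microglia-like cells of males held 12790 ± 2290 CPM with the WT and 11570 ± 180 CPM with the THY-Tau22 genotype (n = 3 each). Cx3cr1 was the largest part of that sum, at 6598 ± 1440 CPM in WT and 4530 ± 933 CPM in THY-Tau22 males. The sum therefore mostly follows that gene and does not show a decline of the set. None of the 9 genes was called in the edgeR quasi-likelihood test (called means an adjusted p under 0.05 with a change of 0.5 or more on the log2 scale, up or down), where 1.07% of the 5494 genes tested were called. DESeq2 called none of the 9 either, and 110 genes in all. The 59 genes behind that share rest on few mice: they went to 0 without WT male replicate 1, to between 2 and 5 without WT male replicate 2 or 4 or THY-Tau22 male replicate 1 or 3, and to 205 without WT female replicate 3, and none of the 9 was called in any of these fits. Before adjustment, 3 of the 9 genes and 962 of all genes tested had p under 0.05.

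Those 3 were Olfml3, Selplg and Cx3cr1, and they did not all go one way. Olfml3, the secreted protein, had 503, 666.8 and 863.7 CPM in the THY-Tau22 males and 358.9, 396.4 and 432.2 CPM in the WT males. The groups did not overlap, and the exact permutation test gave p = 0.1, the smallest that 3 against 3 mice allow. How many of all genes separate in this way was not counted. Whether such separation is particular to these genes is therefore not known. By a different measure, 17.5% of all genes tested had an unadjusted p under 0.05 in the edgeR fit. The log2 fold change of Olfml3 was 0.70 ± 0.27 (SE), with an edgeR adjusted p of 0.174.

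Selplg, the P-selectin ligand, had 514.9, 656 and 1118 CPM in the THY-Tau22 males and 321.8, 455.1 and 495.3 CPM in the WT males. Here too the groups did not overlap, and the highest value was that of THY-Tau22 male replicate 3, the library with the deepest cells. Its log2 fold change was 0.75 ± 0.31 (SE), with an edgeR adjusted p of 0.201. Without that mouse it was 0.39 for Selplg, against 0.50 for Olfml3.

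Cx3cr1 went the other way, with 3469, 4897 and 5223 CPM in the THY-Tau22 males and 4930, 7431 and 7432 CPM in the WT males. The groups overlapped, since WT male replicate 4 lay below THY-Tau22 male replicate 1, and the log2 fold change was −0.61 ± 0.27 (SE), with an edgeR adjusted p of 0.241. The library under both labels, left out of the fit, had 6318 and 6102 CPM of Cx3cr1 in its 2 tables, 544.5 and 506.6 CPM of Selplg and 467.5 and 457.7 CPM of Olfml3.

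P2ry12 had 1377, 1687 and 1771 CPM in the THY-Tau22 males and 1586, 1824 and 1939 CPM in the WT males, which overlapped. Its log2 fold change of −0.22 ± 0.24 (SE) had an edgeR adjusted p of 0.667. The other 5 genes ranged from −0.18 (Sall1) to 0.34 (Tmem119), with edgeR adjusted p of 0.541 or more. The median of the 9 genes was 0.07 and that of all genes tested 0.01, and 5 of the 9 were positive.

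Other measures of the microglia-like cells separated the male genotypes. Mitochondrial mRNA took 0.355 ± 0.0772% of UMIs at the median in the WT and 0.894 ± 0.163% in the THY-Tau22 mice. Immediate early genes, which dissociation can induce, summed to 31860 ± 421 CPM in WT and 40550 ± 1370 CPM in THY-Tau22 mice. That list of 18 also holds the chemokine Ccl4 and the cytokine Il1b. Malat1, a nuclear long non-coding RNA, was at 45550 ± 3870 CPM in WT and 26500 ± 6290 CPM in THY-Tau22 mice, and oligodendrocyte markers summed to 240.0 ± 45.8 and 486.1 ± 187 CPM. In none of these 4 did the groups overlap (exact permutation test, p = 0.1 each, n = 3 and 3), and their part in the levels of the 9 genes was not tested. Macrophage markers summed to 11.8 to 57.4 CPM in THY-Tau22 and 9.33 to 38.2 CPM in WT males, and none of the 10 had enough counts to be tested.

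Genes around the homeostatic set were read in the same male fit. Of 24 other microglial identity genes tested none was called, and the smallest p-values included those of C1qb (log2 fold change 1.18 ± 0.35, edgeR adjusted p = 0.0937), C1qa and Cst3. Of the 25 identity genes listed, 7 are also markers that chose the class, C1qa and C1qb among them. Tyrobp had a log2 fold change of 1.13 ± 0.34 with an edgeR adjusted p of 0.0944, and none of 8 partners was called. Of 17 disease-associated microglia genes 7 were called higher, led by H2-D1, a class I molecule (1.78 ± 0.33), Clec7a, a pattern receptor (2.49 ± 0.49), Apoe, a lipid carrier (2.81 ± 0.58), and B2m (1.48 ± 0.35). This list is not independent of earlier results of these data. Of the mitochondrial mRNAs 5 of 8 were called higher and of the list of immediate early genes 1 of 18, the chemokine Ccl4.

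In females none of the 9 genes was called and none had an unadjusted p under 0.05. The edgeR test called 0 genes of 5494 (0%), with 133 at an unadjusted p under 0.05, and DESeq2 called 0 with 82. The summed 9 genes stood at 12480 ± 1930 CPM in WT (n = 3) and 12190 ± 1450 CPM in THY-Tau22 mice (n = 5). Log2 fold changes ran from −0.18 ± 0.27 (Selplg) to 0.12 ± 0.24 (Cx3cr1), and all 9 pairs of groups overlapped. Olfml3 had 341.4, 610.9 and 720.8 CPM in WT mice and 366.1, 471.1, 539.9, 596.4 and 804.7 CPM in THY-Tau22 mice. Selplg had 449.2, 735.8 and 1108 CPM in WT mice and 442.8, 525.2, 643.2, 679.6 and 962.2 CPM in THY-Tau22 mice. In both genes the ranges of the groups largely covered each other.

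Over both sexes together 0 of 5494 genes were called (0%; 420 at an unadjusted p under 0.05, and DESeq2 0 called with 292), and the 9 genes ranged from −0.24 ± 0.18 (Cx3cr1) to 0.37 ± 0.18 (Olfml3). The sex by genotype interaction, the male minus the female log2 fold change, also called 0 genes (0%; 761 at an unadjusted p under 0.05, and DESeq2 28 called with 636, none of the 9). Of the 9 genes 1, Selplg, had an unadjusted p under 0.05. Its values were 0.93 ± 0.41 for Selplg (edgeR adjusted p = 0.304), −0.73 ± 0.37 for Cx3cr1 (edgeR adjusted p = 0.370) and 0.67 ± 0.36 for Olfml3 (edgeR adjusted p = 0.401). Without WT female replicate 3 the interaction count over all genes went from 0 to 459, still with none of the 9 called. Among the 12 mice of title code MB21, a comparison chosen after the data were seen, it was 232 of 5448 genes, and with the code as a term of the fit 52 of 6000. Selplg then had an interaction of 1.13 ± 0.41 (edgeR adjusted p = 0.0985) among the MB21 mice and 0.91 ± 0.38 (edgeR adjusted p = 0.218) with the term. In the females of MB21 alone (2 WT and 4 THY-Tau22) 3 genes were called, none of the 9, and the 9 ranged from −0.40 ± 0.30 (Selplg) to 0.18 ± 0.28 (Cx3cr1). A difference between the male and the female effect was therefore not shown for any of the 9.

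**Figure D4:**
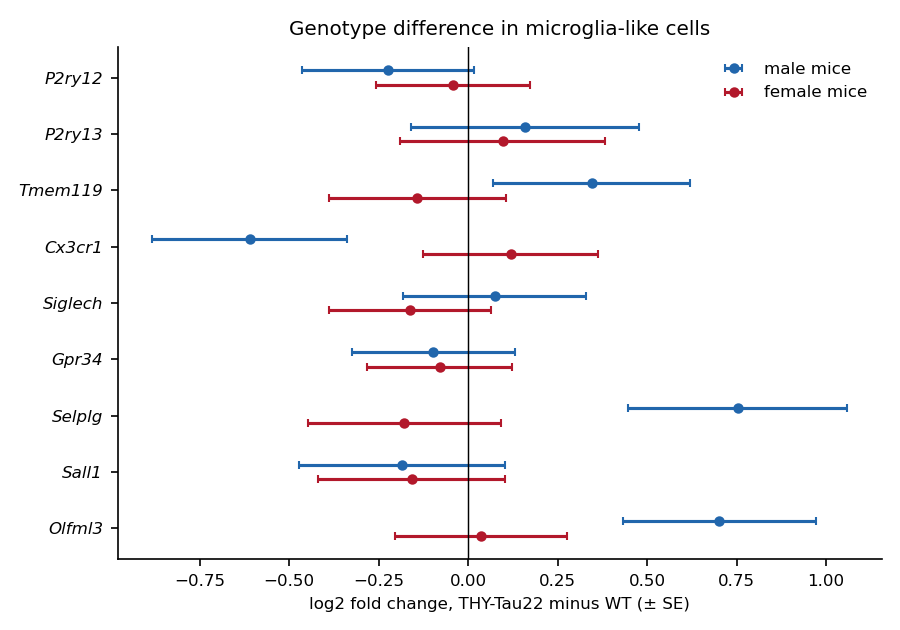
Log2 fold changes of THY-Tau22 over WT in microglia-like cells for the 9 genes, with the SE from the edgeR fit, in males and in females. In males Selplg (0.75) and Olfml3 (0.70) are highest and Cx3cr1 (−0.61) is lowest, and in females all 9 lie between −0.18 and 0.12.

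Between the sexes 4 of 5494 genes were called (0.0728%), none of them among the 9. Gpr34, which is X-linked, had a log2 fold change of females over males of 0.30 ± 0.15 (edgeR adjusted p = 0.998), and the other 8 lay between −0.07 and 0.28.

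Summed over all kept barcodes the levels also carry the share of microglia in a library, and fewer cells of a type and less RNA per cell cannot be told apart in such a sum. Here 0 of 11643 genes were called in males (0%; 1792 at an unadjusted p under 0.05, and DESeq2 15 called with 1646), in females (0%; 203, and DESeq2 0 with 156), over both sexes (0%; 491, and DESeq2 0 with 405) and for the interaction (0%; 1482, and DESeq2 0 with 1373). Without WT female replicate 3 the interaction count went to 1142 and the male count to 71, and none of the 9 was among them. Selplg was at 215.3 ± 78.2 CPM in THY-Tau22 and 113.6 ± 16.4 CPM in WT males, Olfml3 at 191.3 ± 43.2 and 110.1 ± 16.8 CPM and Tmem119 at 176.3 ± 51.0 and 125.1 ± 14.0 CPM, each without overlap (exact permutation test, p = 0.1). The share of all genes without overlap was not counted here either. In the edgeR fit the log2 fold change was 0.72 ± 0.33 for Selplg, 0.62 ± 0.31 for Olfml3 and 0.30 ± 0.31 for Tmem119, with adjusted p of 0.31 or more. Cx3cr1 overlapped between the groups, at −0.58 ± 0.26. Microglia-like cells were 28.8 ± 1.23% of kept barcodes in the WT and 26.8 ± 5.81% in the THY-Tau22 males.

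Within the class, the 9 genes were compared between cells with and without a UMI of Clec7a, Cst7 or Itgax, transcripts that mark disease-associated microglia. These marker-bearing cells numbered 344, against 6709 without, and 13 mice had at least 10. In males they were 2.64 ± 0.415% of WT and 9.95 ± 3.73% of THY-Tau22 microglia-like cells, without overlap (exact permutation p = 0.1), and in females 3.73 ± 2.51% and 4.83 ± 1.66% (exact permutation p = 0.464). These shares were taken without thinning. The median UMIs of a microglia-like cell averaged 484.3 in WT and 667.7 in THY-Tau22 males, and the part of depth in the shares was not tested. The comparison is within mice, and none of the 9 genes was used to choose the cells.

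P2ry12 was lower in the marker-bearing cells of 13 of 13 mice. Its level was 809.2 ± 271 CPM there (lowest 456.3, median 805.7, highest 1219) and 1793 ± 247 CPM in the other cells (lowest 1325, median 1847, highest 2131), and the 2 ranges did not overlap (exact permutation test over signs, n = 13, p = 0.000244, the smallest 13 mice allow). Pooled over mice the level was 2.14-fold lower.

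Tmem119 and Selplg were also lower in 13 of 13 mice. Tmem119 had 312.4 ± 179 CPM in the marker-bearing and 578.3 ± 173 CPM in the other cells, and Selplg 375.6 ± 228 and 691.4 ± 268 CPM (exact permutation p = 0.000244 for both). Their ranges overlapped between mice, and in the marker-bearing cells Tmem119 was at 0 in 2 mice and Selplg in 1.

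Cx3cr1 fell from 5551 ± 1240 to 4129 ± 1160 CPM, lower in 11 of 13 mice (exact permutation p = 0.000977). Olfml3 fell from 579.9 ± 177 to 398.4 ± 182 CPM in 11 of 13 mice (exact permutation p = 0.00342), and P2ry13 from 281 ± 89.6 to 182 ± 96.2 CPM in 12 of 13 (exact permutation p = 0.00977). Siglech fell from 2200 ± 410 to 1706 ± 587 CPM in 10 of 13 mice (exact permutation p = 0.0186) and Sall1 from 199.7 ± 52.5 to 131.3 ± 101 CPM in 10 of 13 (exact permutation p = 0.0415). Gpr34 stood at 801 ± 145 CPM in the other and 649.1 ± 249 CPM in the marker-bearing cells, a difference within the spread (lower in 11 of 13 mice, exact permutation p = 0.107). These p-values are not adjusted over genes.

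**Figure D5:**
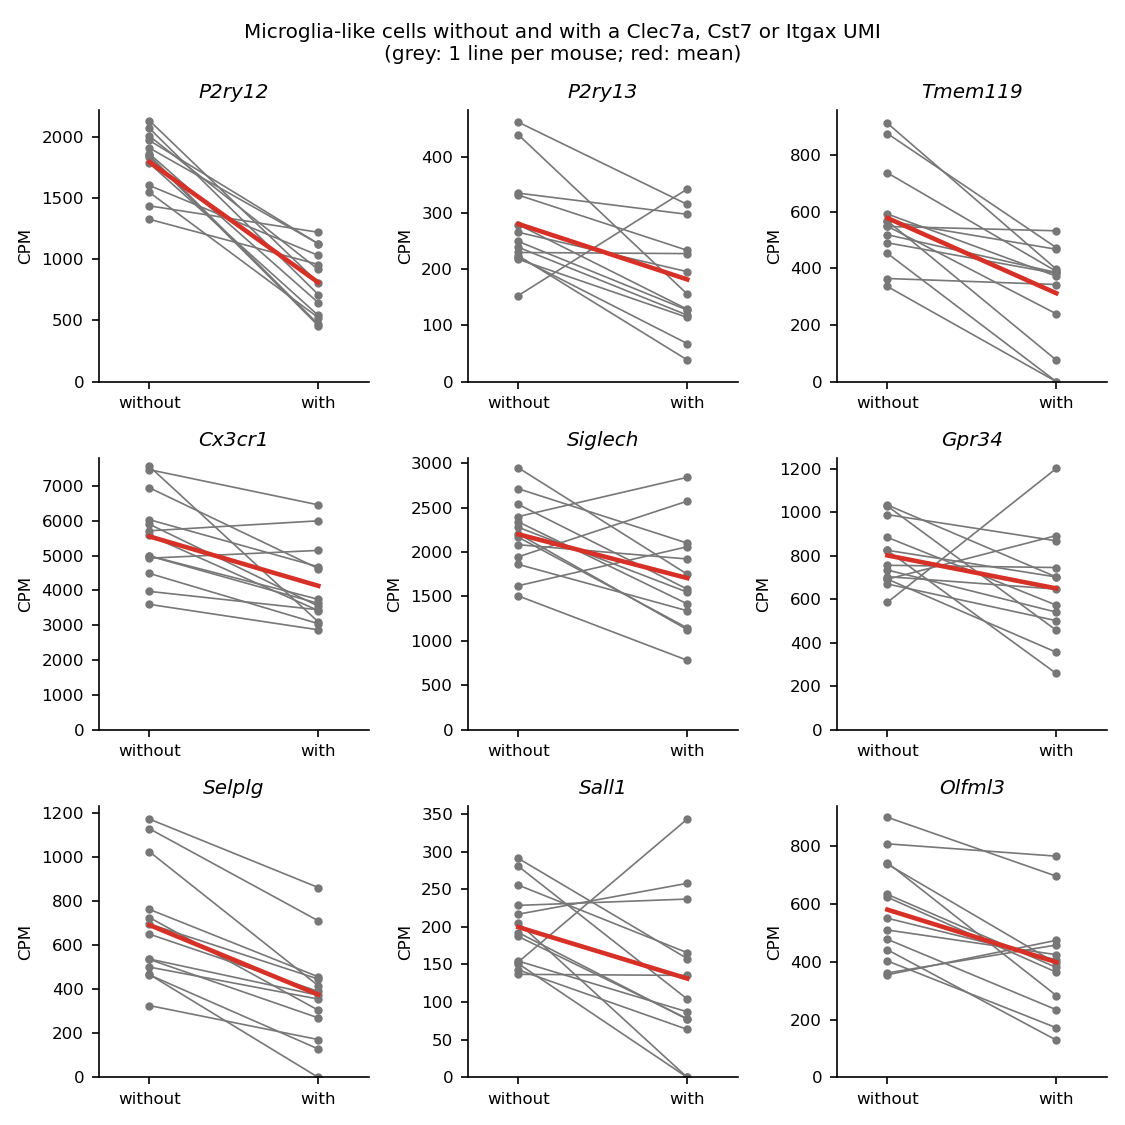
CPM of each gene in microglia-like cells without and with a Clec7a, Cst7 or Itgax UMI, with a line for each of 13 mice. P2ry12, Tmem119 and Selplg go down in 13 of 13 mice and Siglech and Sall1 in 10 of 13.

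Across all genes, edgeR with a mouse block gave log2 fold changes of −0.67 (Gpr34) to −1.50 (P2ry12) and called all 9 lower, where 10.1% of 4210 genes were called lower. The scaling matters here, because the marker-bearing sets are small and deeper per cell, with a median of 665 against 507 UMIs. The median of all genes was −0.29 in that fit, with 425 genes called lower and 94 higher, whereas library totals without TMM factors gave a median of −0.02 with 107 lower (2.54%) and 164 higher, and DESeq2 51 lower (1.21%) and 156 higher. All 9 genes remained negative under both, but library totals called 5 of 9 (P2ry12, P2ry13, Tmem119, Selplg and Olfml3) and DESeq2 4 of 9 (P2ry12, Tmem119, Selplg and Olfml3). In cells of 500 to 1500 UMIs, an alternative chosen after the data were seen, 6 of the 9 were called lower over 8 mice, where 3.5% of 1884 genes were called lower.

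The marker-bearing cells differed in other respects. Class markers summed to 33940 CPM in them and 25700 CPM in the rest, and macrophage markers to 106.6 and 33.1 CPM, a small fraction of the 15390 CPM in macrophage-like cells. Without cells that had a UMI of another immune class's markers, also chosen after the data were seen, edgeR with TMM factors called all 9 lower over 11 mice, where 9.3% of 3442 genes were called lower (320 lower and 82 higher). Of 24 other microglial identity genes 17 were called lower by edgeR with TMM factors, led by Vsir (−1.19 ± 0.19), Cst3, Mef2c and Rgs10, and none higher. That count comes from the scaling with the most lower calls, and 7 of the 25 genes listed are also class markers. The ectoenzyme Entpd1 (−0.92 ± 0.19) and the Sall1 paralog Sall3 (−1.13 ± 0.33) were called lower, and Tyrobp, at 0.37 ± 0.14, was not called. Of 19 disease-associated genes, 3 of which chose the cells, 15 were called higher, among them Apoe (2.83 ± 0.14) and the lipase Lpl (5.65 ± 0.28). Of the 18 genes on the immediate early list 9 were called lower with TMM factors, such as Jun and Egr1, and 1 higher, the cytokine Il1b. In that fit the balance of lower and higher calls depends on the scaling as given above.

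Leaving the marker-bearing cells out did not bring a call to the genotype comparison. In the microglia-like cells without a Clec7a, Cst7 or Itgax UMI, an alternative chosen after the data were seen, the male log2 fold changes were 0.81 for Selplg, 0.76 for Olfml3 and −0.57 for Cx3cr1, with edgeR adjusted p of 0.19, 0.167 and 0.288, and 0 of all genes were called.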

How the data were processed

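Cells of fresh neocortex from 16 mice were captured by Drop-seq. Per the labels, the authors used Illumina sequencing and mm10, and their methods name the usual Drop-seq pipeline; its version, the annotation and the use of strand are not given in the sources used here. The authors deposited UMI counts per gene and barcode, 3000 barcodes per library, without normalization; these counts were used as they are, and 0 columns of per-sample values were unmapped.

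Barcodes with 200 to 7000 detected genes were kept. A barcode joined the class with the most marker UMIs, at least 3 UMIs of 2 genes and at least 2 times every other list; barcodes short of this lead were left out as mixed, which also stands in for a doublet caller. These classes are not the study's own, so differences from it can arise there, and 6.56% of microglia-like barcodes lay near the limits. Replicate numbers follow accession order and only name mice. The 9 genes and the gene lists were chosen with earlier results of these data known.

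Counts were summed per mouse and class and tested in R 4.3.3 with edgeR 4.0.16 (quasi-likelihood, TMM, filterByExpr, 4 groups sharing 1 spread; a mouse block for sets within mice, with at least 10 cells of each set), adjusted by Benjamini-Hochberg over all genes tested. SE is the absolute log2 fold change divided by the square root of F. Alternatives were DESeq2 1.42.0, RLE size factors, no filter, other cell limits and leaving out each mouse. Named genes are the 9, plus per list and contrast up to 4 with the smallest p. A few genes under this rule are not reported here. Permutation tests are exact and two-sided, in Python 3.11.15 with scipy 1.17.1. The scripts were checked on simulated counts with known changes. Of genes changed by 1 on the log2 scale, the male test in microglia-like cells called 14.7%. Of genes changed by 2 it called 85.3%. Intervals cover counting error only. Promoters are from RefSeq (GRCm38.p6), coordinates from GENCODE.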

Additional observations from a re-analysis of the deposited data

How the results depend on the processing

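None of the 9 genes was called for genotype, interaction or sex under any of the 28 settings run for microglia-like cells or the 24 for all cells, which include DESeq2, RLE size factors, no filter on low counts, other cell limits, all 16 libraries as labelled, the doubled library kept under either label, each mouse left out and, chosen after the data were seen, the title code MB21 or MB22 as a term or the MB21 mice alone. In simulated counts the male test in microglia-like cells called only 14.7% of genes changed by 1 on the log2 scale. The absence of calls therefore does not bound changes of the size seen in the 9 genes. The male count over all genes ranged from 0 with all 16 libraries as labelled to 205 without WT female replicate 3, and was 144 with the title code as a term. Without that mouse the interaction count went from 0 to 459 in microglia-like and to 1142 in all cells. Without a filter on low counts the counts over all genes were 132 for males, 15 for females, 32 with the sexes joined and 42 for the interaction in microglia-like cells, and 295, 32, 48 and 182 in all cells. Between cells with and without a Clec7a, Cst7 or Itgax UMI the number of the 9 genes called lower went from 9 to 5 with library totals without TMM factors (chosen after the data were seen), to 4 with DESeq2 and to 2 without the mouse block, and it was 6 in cells with at least 500 detected genes; all 9 stayed negative in each. Between macrophage-like and microglia-like cells 7 to 9 were called in the settings that could be fitted; with at least 500 detected genes no mouse had 10 macrophage-like cells, and no value was obtained. All 9 were highest in microglia-like cells, among the classes compared, in each setting run. No paired analysis was possible between genotypes because the replicate numbers follow accession order and only name mice.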
